A study of Rattus norvegicus with 19 samples.

Results

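The subject is 10 transcripts that mark the exocrine pancreas or the kidney, measured in liver RNA of rats. The 5 pancreas members are Prss1, Cpa1, Cela1, Ctrb1 and Pnlip, and the 5 kidney members are Umod, Slc12a1, Kap, Slc34a1 and Cdh16. They were taken by gene symbol from the annotation of the array, and all 10 of 10 were found, among 14217 genes with a symbol. Where a gene has several probe sets, the values given are those of the one with the highest mean. Slc34a1 has a second probe set, so the members have 11 probe sets of 31042.

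The samples were livers of Wistar Han rats on postnatal day 4, hybridised to 19 single-colour Affymetrix arrays. Dams received corn oil (vehicle, 5 arrays) or DE-71 by gavage at 0.1 mg/kg (5 arrays), 15 mg/kg (4 arrays) or 50 mg/kg (5 arrays) per day, from gestation day 6 to postnatal day 4. DE-71 is a commercial mixture of brominated diphenyl ethers that was used as a flame retardant. Strain, vehicle and the left lateral lobe as the source of RNA were common to all groups. The labels do not say whether the animals sampled were pups or dams, nor that each array had its own animal or litter. The p-values thus measure only the spread between these samples, which may be technical. The values are the log2 signals deposited after RMA, a procedure that corrects background, equalises the arrays and summarises the probes of a probe set. Their precision is limited by the number of arrays.

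Acinar cells of the exocrine pancreas make digestive enzymes, mostly as inactive precursors that are activated in the gut, and the RNAs of these enzymes are among the most abundant in that organ. Kidney tubules take back salts, phosphate and sugars from the filtrate through transporters, many of which belong to 1 segment of the nephron. Hepatocytes are not known as a main source of chymotrypsinogen or of these tubule transporters, so such genes serve as markers of other tissue in liver RNA.

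Several arrays stood apart from the rest or went against their labels. The arrays of 0.1 mg/kg replicate 2 and vehicle replicate 2 were nearly identical: their log2 values over 31042 probe sets differed with a SD of 0.1275, and 1 probe set differed by more than 1. They were the most alike of all 171 pairs of arrays. The next pair, 0.1 mg/kg replicates 3 and 4, had a SD of 0.1968 and 78 probe sets that differed by more than 1, and the median pair had a SD of 0.385 and 644 such probe sets. The labels give these arrays to different groups, with array numbers 11 and 9, and the labels were kept. The differences of the members and of their means between doses, and the numbers of calls, are also given without both. Cyp1a1, a cytochrome P450 induced through the Ah receptor, read 14.06 in 0.1 mg/kg replicate 1, against 7.19 to 8.42 in the other arrays of that group and at least 14.11 at 50 mg/kg. The sex is labelled female, and the Y-linked Eif2s3y read 9.55 to 10.07 and Uty 9.46 to 10.03 on all 19 arrays, while Xist, the RNA that coats an inactive X chromosome, read 3.88 to 4.29. Albumin (Alb) read 15.01 to 15.06 and alpha-fetoprotein (Afp), the main serum protein of fetal liver, 14.47 to 14.70, so liver RNA was present on each of the 19 arrays.

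**Figure D1:**
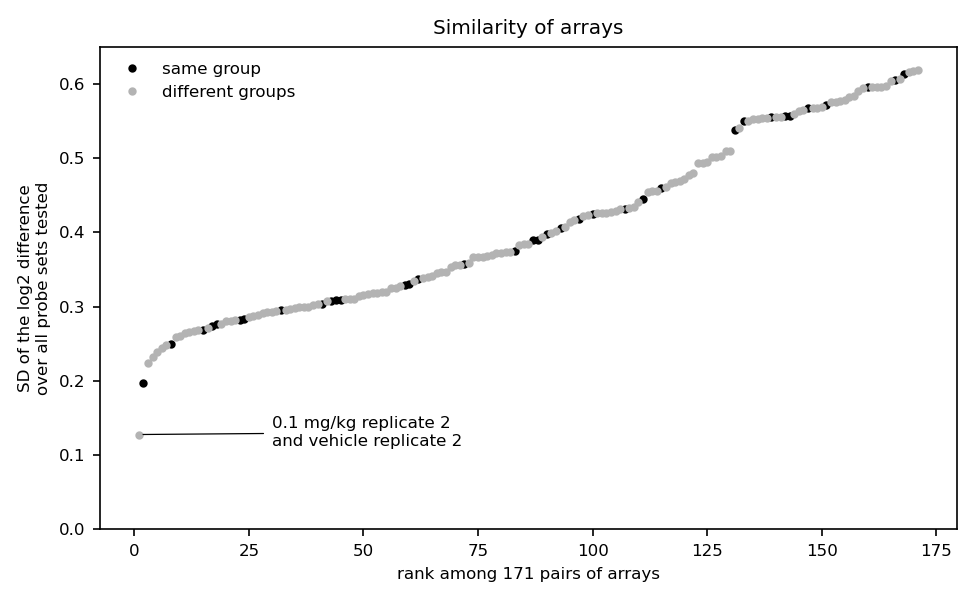
Likeness of the 171 pairs of arrays. Each point is a pair, placed by rank (horizontal axis) and by the SD of the log2 difference over 31042 probe sets (vertical axis), black for arrays of the same group and grey for arrays of different groups. The pair of 0.1 mg/kg replicate 2 and vehicle replicate 2 lies lowest at 0.1275, below the next pair at 0.1968.

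A member is called carried by an array where its log2 value lies more than 1 above its own median over the 19 arrays. An array is called a carrier of pancreas or of kidney transcripts where at least 3 of the 5 members of that set are carried. The share of all genes that each array carried is not given, so counts of carried genes have no background beside them. Pancreas transcripts were carried by 4 of 19 arrays, namely vehicle replicates 2 and 4, 0.1 mg/kg replicate 2 and 15 mg/kg replicate 5. Kidney transcripts were carried by 3 of 19 arrays, namely vehicle replicate 2, 0.1 mg/kg replicate 2 and 50 mg/kg replicate 3. The near-identical arrays carried both sets, so that 5 arrays carried either. Without those 2 arrays, 2 of 17 arrays carried pancreas and 1 of 17 kidney transcripts. Pancreas carriers were 2 of 5 arrays in vehicle, 1 of 5 at 0.1 mg/kg, 1 of 4 at 15 mg/kg and 0 of 5 at 50 mg/kg. Kidney carriers were 1 of 5 arrays in vehicle, 1 of 5 at 0.1 mg/kg, 0 of 4 at 15 mg/kg and 1 of 5 at 50 mg/kg. Values of the leading probe sets left a gap around the threshold: the lowest carried values were Kap and Umod on 50 mg/kg replicate 3, at 1.99 and 2.08 above their medians, and the highest value not carried was Cpa1 on vehicle replicate 1, at 0.76 above its median. In bulk RNA, more cells of another tissue and more RNA per cell cannot be told apart.

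**Figure D2:**
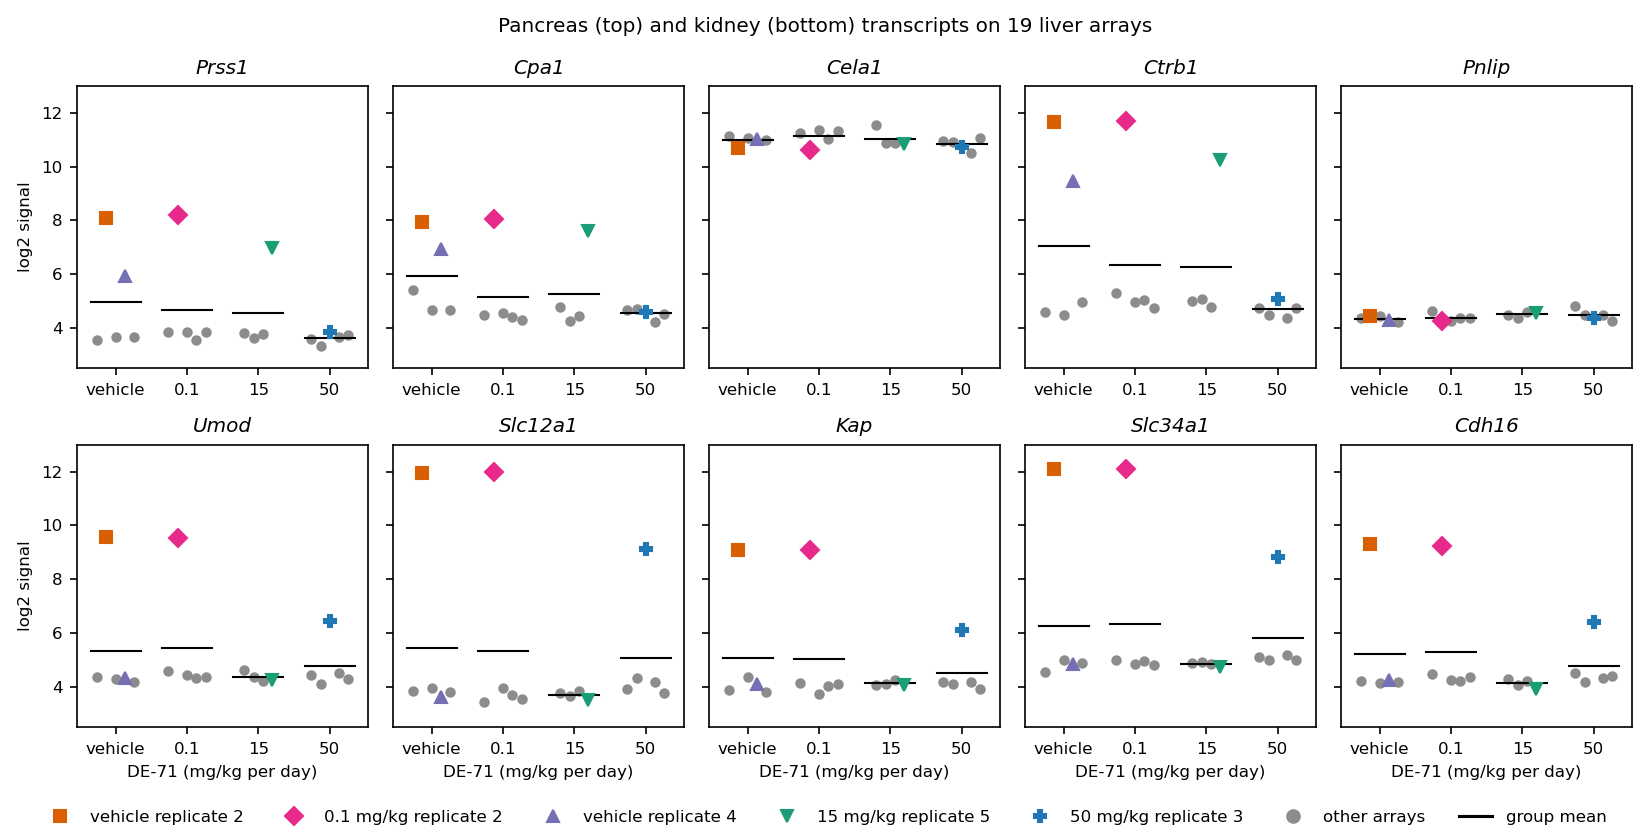
Log2 signal (vertical axis) of the pancreas members (top) and kidney members (bottom) on each of the 19 arrays, by dose of DE-71 in mg/kg per day (horizontal axis). Each point is an array, coloured symbols mark the 5 arrays that carried either set, grey points are the others and black lines are group means. Prss1, Cpa1 and Ctrb1 stand high on the same 4 arrays, the kidney members stand high on 3 arrays, and Cela1 and Pnlip keep to a narrow band on all 19.

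The promoters of 3 pancreas members and 1 kidney member are shown because Ctrb1 and Prss1 were carried by the same 4 arrays while Cela1, of the same set, was carried by none, and Slc34a1 is the member with 2 probe sets. Each is the RefSeq sequence of 250 bases before to 50 bases after the start of the gene, on build GRCr8, read on the strand of the gene. Ctrb1 lies at chr19:56566929-56567228, minus strand, Prss1 at chr4:71330999-71331298, plus strand, Cela1 at chr7:133665012-133665311, minus strand, and Slc34a1 at chr17:9238934-9239233, minus strand. Capitals mark the letters CACCTG and TTTCCC in the pancreas members, which are the parts of the site of PTF1, the acinar transcription factor complex, and GTTAAT in Slc34a1, a half-site of HNF1 factors. A motif on the opposite strand appears as its reverse complement.
Ctrb1: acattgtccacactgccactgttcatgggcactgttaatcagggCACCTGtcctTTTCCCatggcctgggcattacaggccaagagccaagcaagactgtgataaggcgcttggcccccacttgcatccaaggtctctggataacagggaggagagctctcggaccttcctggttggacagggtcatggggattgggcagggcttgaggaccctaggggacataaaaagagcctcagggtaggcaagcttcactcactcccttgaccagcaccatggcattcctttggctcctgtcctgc
Prss1: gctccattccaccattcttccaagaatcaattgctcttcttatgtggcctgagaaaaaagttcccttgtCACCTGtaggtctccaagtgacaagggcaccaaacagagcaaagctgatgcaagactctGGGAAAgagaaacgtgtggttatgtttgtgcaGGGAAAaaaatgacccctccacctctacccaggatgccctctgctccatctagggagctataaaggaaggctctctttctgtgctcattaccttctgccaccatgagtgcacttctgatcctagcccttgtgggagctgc
Cela1: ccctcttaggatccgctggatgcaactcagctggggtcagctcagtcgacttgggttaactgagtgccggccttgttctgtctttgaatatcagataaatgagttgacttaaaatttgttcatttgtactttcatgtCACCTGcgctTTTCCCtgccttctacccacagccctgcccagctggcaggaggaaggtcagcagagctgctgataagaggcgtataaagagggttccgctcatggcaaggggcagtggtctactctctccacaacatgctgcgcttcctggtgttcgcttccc
Slc34a1: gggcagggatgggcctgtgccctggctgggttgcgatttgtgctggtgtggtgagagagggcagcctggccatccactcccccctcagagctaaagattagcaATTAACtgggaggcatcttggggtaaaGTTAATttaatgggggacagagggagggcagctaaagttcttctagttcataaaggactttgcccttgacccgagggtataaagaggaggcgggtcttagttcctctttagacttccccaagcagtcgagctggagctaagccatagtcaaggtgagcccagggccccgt

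The search covered both strands of 33469 promoters of 300 bases, and 9 of the 10 members matched a promoter by gene ID. The letters CACCTGNNNNTTTCCC, which overlap both shorter motifs by construction, were present in 0.0269% of all promoters (9 of 33469) and in those of Ctrb1 and Cela1. CACCTG alone was present in 18.8% of promoters and in 4 members, TTTCCC in 25.1% and 5 members, and GTTAAT in 7.45% and 3 members. TATAAA, the letters of a TATA box, was present in 14.2% of promoters and in 5 members. A match is a description of letters and not of a bound site.

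Among the pancreas members, Prss1, Cpa1 and Ctrb1 were raised on the same 4 arrays, while Cela1 and Pnlip were carried by 0 of 19 arrays. The label of a pancreas set therefore fits the values of 3 of its 5 members. Ctrb1 encodes chymotrypsinogen B, the precursor of a protease. Its log2 signal was 4.59, 11.68, 4.48, 9.45 and 4.97 in vehicle replicates 1 to 5, and 5.30, 11.71, 4.98, 5.04 and 4.75 in 0.1 mg/kg replicates 1 to 5. It was 5.00, 5.07, 4.79 and 10.25 in 15 mg/kg replicates 2 to 5, and at 50 mg/kg it was 4.74, 4.48, 5.07, 4.38 and 4.76 in replicates 1 to 5. The carriers thus lay between 9.45 and 11.71 and the other 15 between 4.38 and 5.30, with a gap of 4.15 between them. On the log2 scale Ctrb1 lay above its median over 19 arrays by 6.70 and 4.47 on vehicle replicates 2 and 4, by 6.74 on 0.1 mg/kg replicate 2 and by 5.27 on 15 mg/kg replicate 5. The values used carry no detection call, so the medians are not shown to be above background and no linear fold is given for such differences.

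Prss1 encodes a trypsinogen, the precursor of trypsin, which activates the other pancreatic enzymes in the gut. Its log2 signal was 3.54, 8.07, 3.66, 5.92 and 3.66 in vehicle replicates 1 to 5, and 3.87, 8.20, 3.84, 3.56 and 3.85 in 0.1 mg/kg replicates 1 to 5. It was 3.80, 3.61, 3.78 and 6.97 in 15 mg/kg replicates 2 to 5, and at 50 mg/kg it was 3.60, 3.33, 3.84, 3.66 and 3.72 in replicates 1 to 5. The same 4 arrays stood at 5.92 to 8.20 and the remaining ones at 3.33 to 3.87. Cpa1, carboxypeptidase A1, which cleaves amino acids from the end of a protein, read 7.95 and 6.95 on vehicle replicates 2 and 4, 8.06 on 0.1 mg/kg replicate 2 and 7.61 on 15 mg/kg replicate 5, against 4.23 to 5.41 on the other arrays. The highest of these others was vehicle replicate 1, and the next was 15 mg/kg replicate 2 at 4.79.

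Cela1 encodes a pancreatic elastase, a protease of the same family as trypsin. Its log2 signal was 11.13, 10.68, 11.06, 11.03 and 10.99 in vehicle replicates 1 to 5, and 11.26, 10.63, 11.38, 11.04 and 11.31 in 0.1 mg/kg replicates 1 to 5. At 15 mg/kg it was 11.54, 10.86, 10.86 and 10.84 in replicates 2 to 5, and at 50 mg/kg it was 10.96, 10.93, 10.72, 10.50 and 11.05 in replicates 1 to 5. On the 4 pancreas carriers it stood at 10.63 to 11.03, inside the 10.50 to 11.54 of the other arrays. Pnlip, pancreatic triglyceride lipase, the main fat-digesting enzyme of the adult, read 4.24 to 4.56 on the carriers and 4.21 to 4.81 on the others. Neither gene marked the arrays that the remaining 3 members marked.

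Other acinar genes followed Ctrb1. Of 25 measured genes of a further exocrine pancreas list, 9 were carried by all 4 pancreas carriers, 14 by at least 1 and 11 by none, and 8 of the 9 were carried by no other array. Pnliprp1, a relative of pancreatic lipase, read 9.76 and 8.55 on vehicle replicates 2 and 4, 9.95 on 0.1 mg/kg replicate 2 and 9.35 on 15 mg/kg replicate 5, against 3.53 to 4.23 elsewhere. Amy2a3, a pancreatic amylase that digests starch, read 8.57, 7.35, 8.71 and 7.79 on the same arrays in the same order, against 2.83 to 3.46 elsewhere. Clps, the colipase that lipase needs on fat droplets, read 9.18, 7.33, 9.36 and 8.27, and it was the gene carried by a further array, at 6.60 on 15 mg/kg replicate 4. That array had none of the members raised, with Ctrb1 at 4.79.

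The genes whose values were most like the mean of the pancreas members, ranked by Pearson correlation over 19 arrays, were Prss3b (0.99), Pnliprp2 (0.99), Amy2a3 (0.99), Pnliprp1 (0.99), Cel (0.99) and Prss2 (0.99). The likeness rests on the same 4 carriers for each, and no p is given. Prss2 encodes another trypsinogen and Cel a bile-salt-activated lipase. Probe sets of closely related trypsinogens can share targets, so the values of Prss1, Prss2 and Prss3b may not be independent.

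The carriers held the pancreas genes at different levels. Over the 12 genes of the 30 members and further exocrine genes that all 4 arrays carried, vehicle replicate 4 lay below vehicle replicate 2 by a median of -1.37 on the log2 scale (range -2.51 to -0.63). The array of 15 mg/kg replicate 5 lay below vehicle replicate 2 by a median of -0.79 (-1.43 to -0.11), and that of 0.1 mg/kg replicate 2 differed from it by 0.08 (-0.18 to 0.18). Ctrb1 and Prss1 differed by -2.23 and -2.15 between vehicle replicates 4 and 2, which is 0.214 and 0.226 of the level on vehicle replicate 2, while Cpa1 stood at 0.499 of it, so the step was not the same for all genes.

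The kidney members were raised together, all 5 on the same 3 arrays. Slc12a1 encodes the sodium, potassium and chloride cotransporter of the thick ascending limb, the target of loop diuretics. Its log2 signal was 3.86, 11.94, 3.95, 3.62 and 3.81 in vehicle replicates 1 to 5, and 3.42, 11.97, 3.95, 3.70 and 3.55 in 0.1 mg/kg replicates 1 to 5. It was 3.76, 3.66, 3.86 and 3.51 in 15 mg/kg replicates 2 to 5, and at 50 mg/kg it was 3.93, 4.31, 9.12, 4.17 and 3.78 in replicates 1 to 5. The carriers lay between 9.12 and 11.97 and the other 16 between 3.42 and 4.31. On the log2 scale Slc12a1 lay above its median by 8.08 on vehicle replicate 2, by 8.12 on 0.1 mg/kg replicate 2 and by 5.27 on 50 mg/kg replicate 3.

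Slc34a1 encodes the main sodium-dependent phosphate transporter of the proximal tubule. Its log2 signal was 4.56, 12.09, 4.98, 4.85 and 4.88 in vehicle replicates 1 to 5, and 4.99, 12.09, 4.85, 4.97 and 4.80 in 0.1 mg/kg replicates 1 to 5. At 15 mg/kg it was 4.90, 4.93, 4.85 and 4.73 in replicates 2 to 5, and at 50 mg/kg it was 5.11, 4.98, 8.82, 5.17 and 4.98 in replicates 1 to 5. The same 3 arrays were high as for Slc12a1. The second probe set of Slc34a1 read 6.44 on vehicle replicate 2 and 6.21 on 0.1 mg/kg replicate 2, and 3.83 to 4.90 on the others. Its highest value among those others was on 50 mg/kg replicate 3, so it was carried by 2 arrays where the leading probe set was carried by 3.

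Umod encodes uromodulin, the most abundant protein of normal urine, which is made in the thick ascending limb. It read 9.58 on vehicle replicate 2, 9.53 on 0.1 mg/kg replicate 2 and 6.44 on 50 mg/kg replicate 3, against 4.10 to 4.61 on the other arrays. Kap, the kidney androgen-regulated protein, which in mouse is made in the proximal tubule, read 9.09, 9.10 and 6.10 on these arrays, against 3.73 to 4.36. Cdh16, the kidney-specific cadherin of tubule epithelium, read 9.31, 9.25 and 6.40 on them, against 3.93 to 4.50. Genes of the proximal tubule and of the thick ascending limb were thus both raised on each of the 3 arrays.

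The array of 50 mg/kg replicate 3 lay below vehicle replicate 2 by a like amount for all 5 kidney members, with log2 differences of -3.14 for Umod, -2.81 for Slc12a1, -3.00 for Kap, -3.27 for Slc34a1 and -2.92 for Cdh16. Over the 14 genes of the 45 kidney members and further kidney genes that all 3 arrays carried, the median difference was -2.94 (range -3.39 to -1.21). Between 0.1 mg/kg replicate 2 and vehicle replicate 2 the median difference was 0.01 (-0.12 to 0.15).

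**Figure D3:**
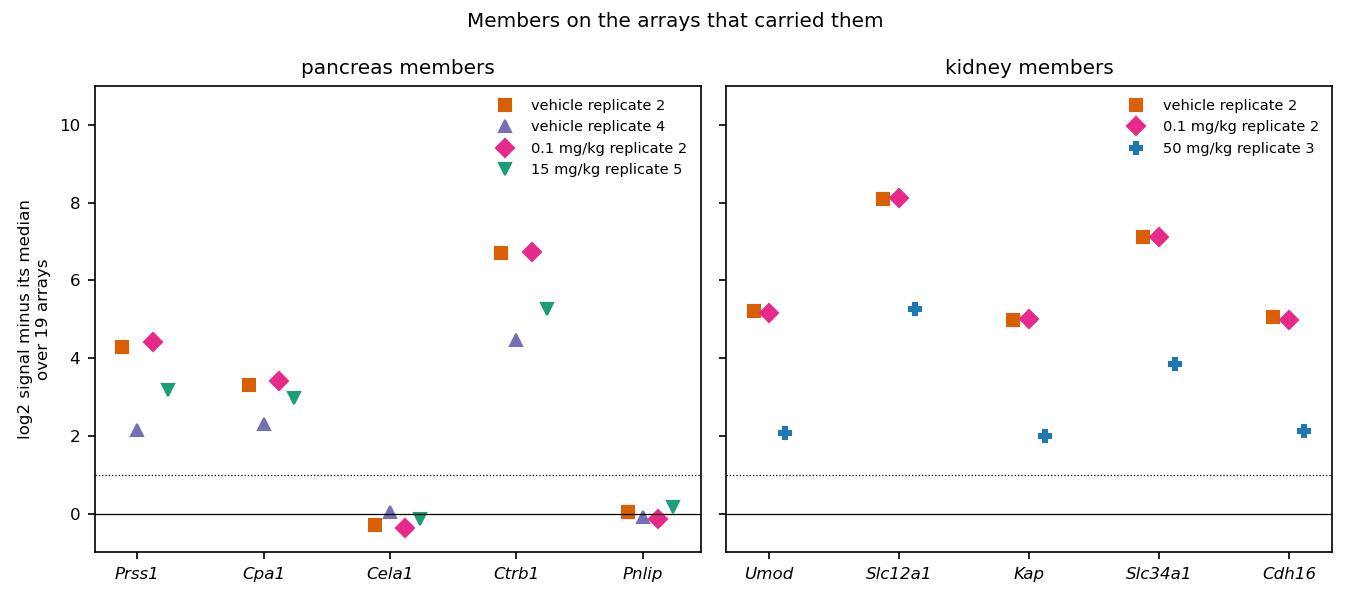
Log2 signal minus its median over 19 arrays (vertical axis) for the pancreas members (left) and kidney members (right) on the arrays that carried them. The dotted line is the threshold of 1 and the solid line the median. The array of 50 mg/kg replicate 3 differs from vehicle replicate 2 by -3.27 to -2.81 for the 5 kidney members, and Cela1 and Pnlip lie near the median on all 4 pancreas carriers.

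Further kidney genes from several parts of the nephron followed the members. Of 15 measured proximal tubule genes, 12 were carried by at least 1 kidney carrier and 4 by all 3. Lrp2, megalin, the endocytic receptor of the proximal tubule, read 11.16 on vehicle replicate 2, 11.07 on 0.1 mg/kg replicate 2 and 8.19 on 50 mg/kg replicate 3. Fxyd2, a regulator of the sodium pump, read 11.35, 11.40 and 8.49 on these arrays, against 5.42 to 6.46 on the others. Of 19 measured genes of the distal nephron, 14 were carried by at least 1 kidney carrier and 4 by all 3.

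Calb1, the calcium-binding protein of the distal convoluted tubule, read 11.66 on vehicle replicate 2, 11.66 on 0.1 mg/kg replicate 2 and 8.28 on 50 mg/kg replicate 3, against 3.28 to 3.65 on the others. Aqp2, the water channel of the collecting duct, read 9.63, 9.72 and 6.65 on these arrays, against 4.41 to 4.96. Of 6 podocyte genes, 3 were carried by at least 1 kidney carrier, and Wt1, a transcription factor of podocytes, was carried by all 3, at 8.67, 8.75 and 7.46 against 5.29 to 6.82. The podocyte genes Nphs1, Synpo and Clic5 were carried by none of the kidney carriers, and 50 mg/kg replicate 3 carried only Wt1 of this list. Proximal and distal genes were thus present among the carried ones, while the podocyte list was divided.

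The adrenal list was not raised with the kidney members. Of its 9 measured genes, 0 were carried by the 3 kidney carriers. Cyp11a1, the enzyme that starts steroid synthesis, read 4.41 to 5.19 over all 19 arrays, with its highest value on 50 mg/kg replicate 3.

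The genes most like the mean of the kidney members over 19 arrays were Pou3f3 (Pearson correlation 0.998), Slc7a13 (0.998), Emx2 (0.998), Calb1 (0.998), Hao2 (0.997) and Slc47a1 (0.997). Pou3f3 and Emx2 are transcription factors of the developing kidney. Slc7a13 and Slc47a1 are transporters of the proximal tubule. Hao2 is an oxidase of hydroxy acids that read 11.70 on vehicle replicate 2, 11.63 on 0.1 mg/kg replicate 2 and 7.54 on 50 mg/kg replicate 3, against 3.63 to 4.52 elsewhere. These correlations rest on the 3 carriers and have no p.

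Markers of other tissues moved with some of the carriers, and their part in the results was not tested. On 15 mg/kg replicate 5, 8 of 12 intestine genes were carried besides the pancreas genes. Fabp2, the fatty acid binding protein of enterocytes, read 11.53 there against 6.55 to 8.26 on the other arrays, and Muc2, the main mucin of goblet cells, read 10.36. Muc2 was also raised on vehicle replicate 2 (8.31), 0.1 mg/kg replicate 2 (8.33) and 15 mg/kg replicate 2 (7.67), against a median of 4.95. Epcam, a surface protein of many epithelia, read 12.19 on 15 mg/kg replicate 5, against 10.57 on both near-identical arrays and a median of 8.71.

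The array of 15 mg/kg replicate 5 carried 4 of 15 proximal tubule genes while its kidney members stayed low, with Slc34a1 at 4.73 and Umod at 4.26. Lrp2 was at 6.92 and Cubn, the partner receptor of megalin, at 6.54 on that array. It also carried 3 of 12 endocrine pancreas genes. Gcg, which encodes glucagon and the gut hormone GLP-1, read 8.31 there, against 3.42 to 4.60 on the others. Ins2, insulin, did not follow the exocrine members. Its highest values were 7.38 on 50 mg/kg replicate 3 and 6.86 on 15 mg/kg replicate 2, which were no pancreas carriers, and then 6.60 on vehicle replicate 2.

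Stomach genes were carried by another array, 15 mg/kg replicate 4, where 6 of 9 were raised. Gkn2, a secreted protein of the gastric surface, read 9.36 on it, against 3.45 to 4.07 elsewhere. Skeletal muscle genes were carried in full, 9 of 9, by vehicle replicates 1 and 5, 15 mg/kg replicate 2 and 50 mg/kg replicates 2 and 3. Of the 5 carriers of pancreas or kidney, 50 mg/kg replicate 3 thus carried 9 of 9 muscle genes, 15 mg/kg replicate 5 carried 6, the near-identical arrays 1 each and vehicle replicate 4 none. Hepatocyte genes were carried by 0 of 19 arrays, and their mean lay between 14.25 and 14.37. The highest value in the data was 15.06, so genes at that level had little room to rise by more than 1. That count was thus nearly fixed in advance.

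**Figure D4:**
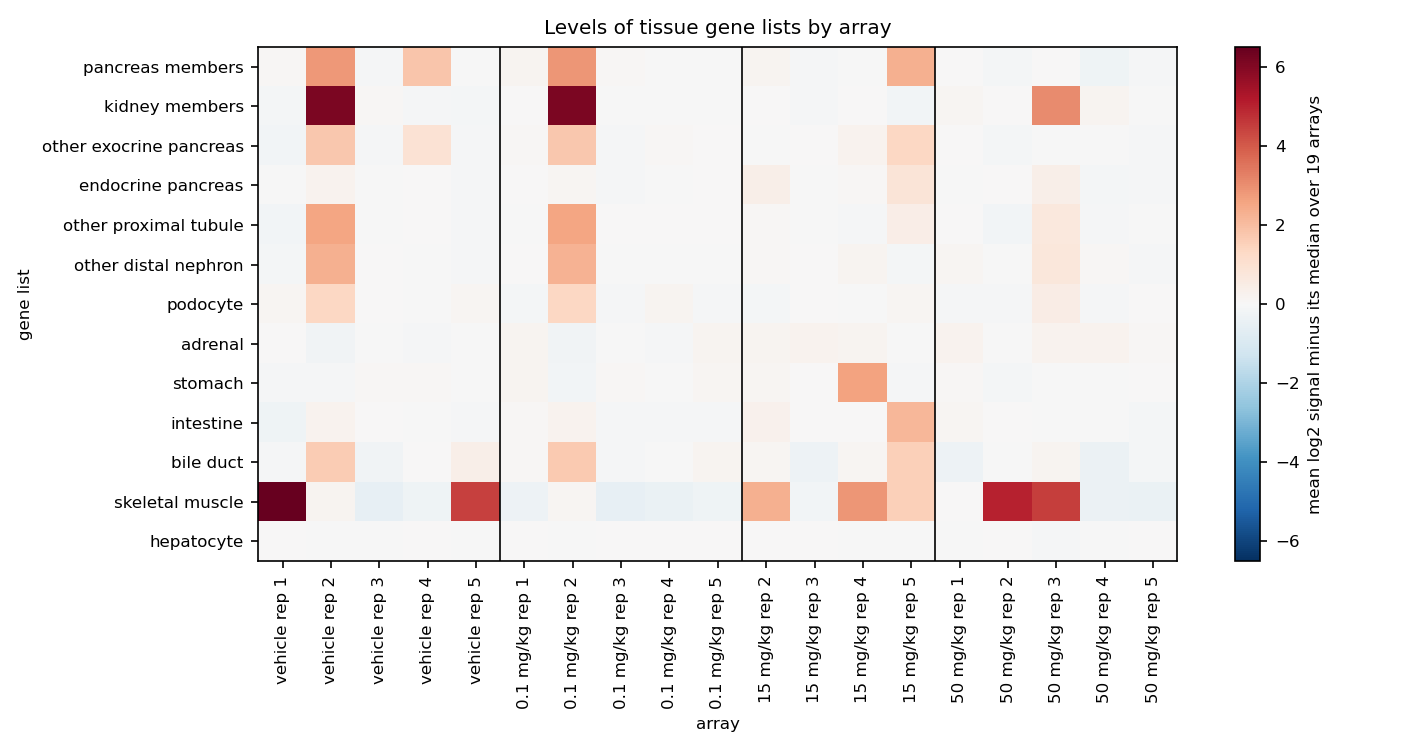
Mean log2 signal of each gene list minus its median over 19 arrays (colour, red above and blue below 0), with arrays across and gene lists down, and black lines between dose groups. The kidney lists stand out on vehicle replicate 2, 0.1 mg/kg replicate 2 and 50 mg/kg replicate 3, and the pancreas members and other exocrine pancreas genes on 4 arrays. The endocrine pancreas list does not follow these 4, and is highest on 15 mg/kg replicate 5 and then 50 mg/kg replicate 3. Stomach stands out on 15 mg/kg replicate 4 and intestine on 15 mg/kg replicate 5. Muscle stands out on 7 arrays, among them 15 mg/kg replicates 4 and 5 and 50 mg/kg replicate 3.

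All 4 pancreas carriers were among the 12 arrays numbered 9 to 20 in the labels, and none among the 7 numbered 1 to 8. Of the kidney carriers, 1 was among the 7 and 2 among the 12. The dose groups are unevenly spread over these numbers: 4 of 5 arrays of the 50 mg/kg group are among the 7, against 1 of 5 of the vehicle group. The labels do not say what the number stands for.

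For each dose the difference from vehicle was tested in 1 fit over all 31042 probe sets with limma, an adjusted p below 0.05 being the threshold. At 0.1 mg/kg 0 of 10 members passed, against 0% of all probe sets by adjusted p and 763 at an unadjusted p below 0.05. At 15 mg/kg 0 of 10 passed, against 0% of all probe sets by adjusted p and 3083 at an unadjusted p below 0.05. At 50 mg/kg, 0 of 10 passed, against 1.61% of all probe sets (499 of 31042), of which 380 were higher (1.22%) and 119 lower (0.383%), and 4791 (15.4%) at an unadjusted p below 0.05. At each dose 0 of 10 members had an unadjusted p below 0.05, and the values of the dose group and of vehicle overlapped for all 10. Groups did not overlap for 0.134% of genes at 0.1 mg/kg, 3.36% at 15 mg/kg and 5.83% at 50 mg/kg. The near-identical arrays lie on either side of the comparison at 0.1 mg/kg, so overlap there was nearly fixed in advance for any gene. The 3 comparisons share their vehicle arrays.

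The pancreas members that marked the carriers had lower means at 50 mg/kg than in vehicle, without passing the test. Ctrb1 averaged 4.69 ± 0.27 at 50 mg/kg and 7.03 ± 3.32 in vehicle (SD, n = 5 each), a log2 difference of -2.35 with a standard error (SE) of 1.51 (limma, adjusted p = 0.476). Prss1 averaged 3.63 ± 0.19 at 50 mg/kg and 4.97 ± 2.00 in vehicle, a difference of -1.34 (SE 0.95, limma adjusted p = 0.520). For Cpa1 the difference was -1.39 (SE 0.77, limma adjusted p = 0.402). The spread lay almost wholly in vehicle, whose median of Ctrb1 was 4.97, against 4.74 at 50 mg/kg. The other pancreas members, Cela1 and Pnlip, differed by -0.14 (SE 0.16, limma adjusted p = 0.691) and 0.13 (SE 0.09, limma adjusted p = 0.524).

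The errors of the kidney members were wide as well. At 50 mg/kg Slc12a1 averaged 5.06 ± 2.28, against 5.44 ± 3.64 in vehicle (SD, n = 5 each), a difference of -0.37 (SE 1.71, limma adjusted p = 0.934). At 15 mg/kg, where no array carried kidney transcripts, it averaged 3.70 ± 0.15 (n = 4), a difference from vehicle of -1.74 (SE 1.81, limma adjusted p = 0.744). The other 4 kidney members differed by -0.03 to 0.09 at 0.1 mg/kg, by -1.42 to -0.92 at 15 mg/kg and by -0.59 to -0.46 at 50 mg/kg. At 0.1 mg/kg the near-identical arrays stood on either side of the comparison, and the limma adjusted p was 0.99994 for each member. Without the near-identical arrays, Slc12a1 differed by -0.15 at 0.1 mg/kg, -0.11 at 15 mg/kg and 1.25 at 50 mg/kg (limma adjusted p = 0.981, 0.972 and 0.495), and the other 4 kidney members by 0.45 to 0.99 at 50 mg/kg. Ctrb1 then differed by -0.85, 0.41 and -1.18 at the 3 doses (limma adjusted p = 0.902, 0.919 and 0.650), and 0 of 10 members passed at any dose.

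The mean over the 5 members of a set shows how far the carriers shifted each group. The pancreas mean was 6.65 ± 1.32 in vehicle, 6.34 ± 1.25 at 0.1 mg/kg, 6.32 ± 1.15 at 15 mg/kg and 5.63 ± 0.12 at 50 mg/kg (SD, n = 5, 5, 4 and 5). Without the 5 carriers of either set it was 5.72 ± 0.08, 5.78 ± 0.10, 5.75 ± 0.15 and 5.61 ± 0.13 in the same order (n = 3, 4, 3 and 4). The kidney mean was 5.47 ± 2.76 in vehicle, 5.49 ± 2.74 at 0.1 mg/kg, 4.23 ± 0.10 at 15 mg/kg and 4.98 ± 1.34 at 50 mg/kg, and without the carriers it was 4.23 ± 0.10, 4.26 ± 0.04, 4.28 ± 0.05 and 4.38 ± 0.09. The carriers were chosen by these same values, so the closeness of the remaining arrays follows from the choice.

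The difference of the pancreas mean from vehicle was -0.32 at 0.1 mg/kg, -0.33 at 15 mg/kg and -1.02 at 50 mg/kg. Without the carriers of either set it was 0.06, 0.03 and -0.11, and without the 2 near-identical arrays -0.40, 0.15 and -0.54. The difference of the kidney mean was 0.02 at 0.1 mg/kg, -1.23 at 15 mg/kg and -0.49 at 50 mg/kg. Without the carriers of either set it was 0.03, 0.05 and 0.15. Without the near-identical arrays it was 0.03, 0.0028 and 0.75, so the difference at 15 mg/kg rested on vehicle replicate 2, and the sign at 50 mg/kg depended on which carriers were in the comparison.

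The differences are also given within the array numbers. Among arrays numbered 1 to 8, the pancreas mean at 50 mg/kg (4 arrays) differed from vehicle (1 array) by -0.18 and the kidney mean by 0.98. Among arrays numbered 9 to 20, the pancreas mean at 50 mg/kg (1 array) differed from vehicle (4 arrays) by -1.20 and the kidney mean by -1.51. With 1 array on a side, these values have no error, and 50 mg/kg replicate 3 lies in the first range and vehicle replicates 2 and 4 in the second, so no dependence on the array number is shown.

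**Figure D5:**
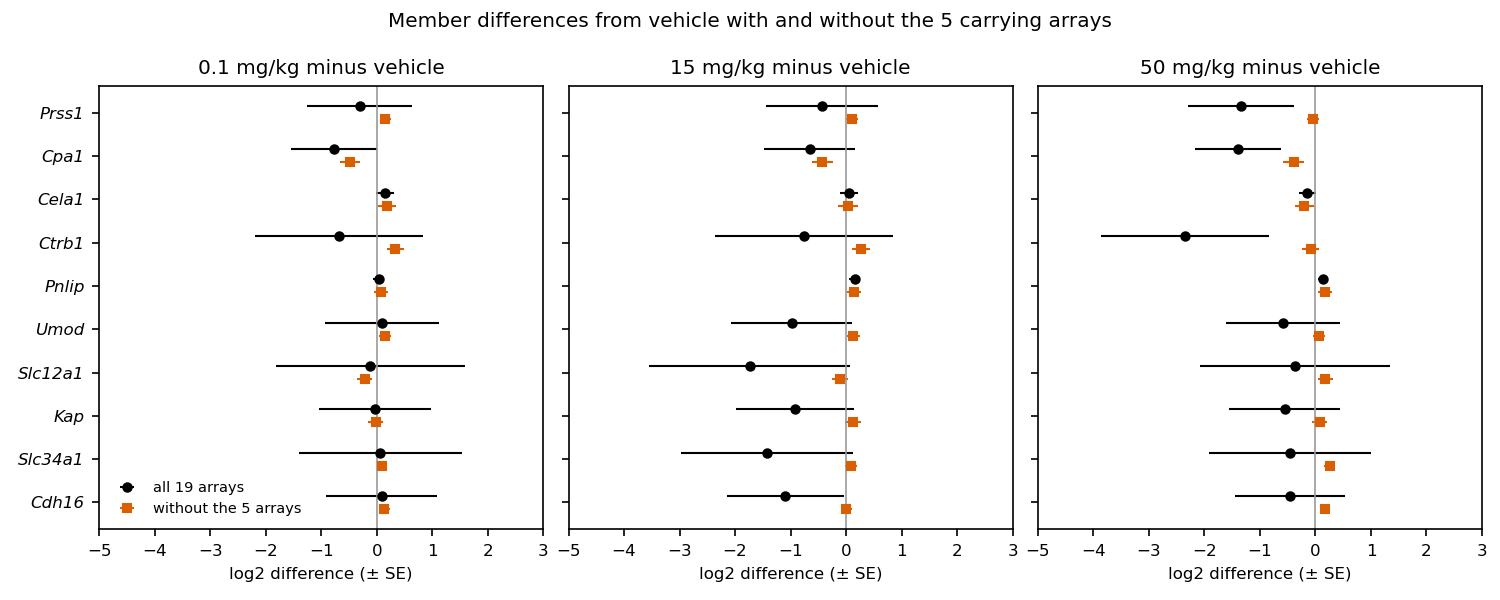
Log2 difference from vehicle (horizontal axis, ± SE from limma) of each member at 0.1, 15 and 50 mg/kg, with all 19 arrays (black circles) and without the 5 arrays that carried either set (orange squares). With all arrays Ctrb1 lies at -2.35 at 50 mg/kg and Slc12a1 at -1.74 at 15 mg/kg, and without the 5 arrays they lie at -0.09 and -0.11.

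Lists of further genes of the same organs gave like counts. Of the 25 other exocrine pancreas genes, 0 passed limma's threshold at 50 mg/kg and 20 had a negative difference, with a median of -0.20 against 0.01 over all genes. Of the 15 proximal tubule genes 0 passed and 14 had a negative difference, with a median of -0.50, and of the 19 distal nephron genes 0 passed and 16 had a negative difference, with a median of -0.27. Without the 5 carriers these medians were 0.06, 0.02 and 0.10, and again 0 genes of the 3 lists passed. At an unadjusted p below 0.05, 0 of the exocrine, 1 of the proximal and 1 of the distal genes passed at 50 mg/kg with all arrays, against 15.4% of all probe sets. Without the 5 carriers 2, 2 and 4 passed. The share of all probe sets in that fit is not given, so these counts cannot be set against 15.4%.

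Across all probe sets, 1322 of 31042 had a Pearson correlation with the pancreas or kidney mean over 19 arrays above 0.8 in size, of either sign. Of these 1322, 0 were among the 499 called at 50 mg/kg. Their median SE was 0.252 with all arrays and 0.115 without the 5 carriers, while that of the other probe sets was 0.104 and 0.116. The 1322 were chosen for following the carriers, which lie within the groups. Their wide errors, the fall without the carriers and the lack of calls thus follow largely from the choice, and are no test of bias. Leaving out the 5 carriers moved the difference from vehicle by more than 0.5 for 221 probe sets at 0.1 mg/kg, 447 at 15 mg/kg and 343 at 50 mg/kg, the last being 105 up and 238 down. Without the near-identical arrays alone, 23, 218 and 218 probe sets moved by that much at these doses. Of the 343 moved at 50 mg/kg, 0 passed with all arrays and 0 without the carriers.

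The number called at 50 mg/kg changed with the arrays in the fit. Without the 5 carriers it was 100 (0.322% of probe sets), of which 87 were also called with all arrays, while 412 were called with all arrays only and 13 without the carriers only. That fit has 4 and 3 arrays in place of 5 and 5. Leaving out 1 array that carried neither set gave as few as 178 calls (without 50 mg/kg replicate 1). Leaving out 1 carrier gave 253, 259 and 330 calls, for vehicle replicate 2, vehicle replicate 4 and 50 mg/kg replicate 3. No fit left out 5 arrays that were not carriers, so the part of the carriers in the fall to 100 was not tested. Without the near-identical arrays the number was 406, of which 339 were shared. Among the genes whose call changed, Hspa13, a chaperone-like protein of the endoplasmic reticulum, differed by 0.43 with all arrays (limma adjusted p = 0.0255) and by 0.38 without the carriers (limma adjusted p = 0.0665). Mrpl37, a protein of the mitochondrial ribosome, differed by 0.31 (limma adjusted p = 0.0472) and 0.26 (limma adjusted p = 0.139), and Serp1, a protein of the secretory pathway, by 0.26 (limma adjusted p = 0.0367) and 0.21 (limma adjusted p = 0.176).

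Rint1 and Lrrc51 gained a call without the carriers, with differences of 0.62 and 0.56 in place of 0.72 and 0.55 (limma adjusted p = 0.0333 and 0.0436 in place of 0.0805 and 0.0641). These 5 genes had correlations of -0.73 to -0.77 with the pancreas mean, the largest in size among the genes whose call changed. Without the near-identical arrays 3 of the 1322 probe sets passed. They were those of Cltrn, which encodes collectrin of the proximal tubule (difference 0.97, limma adjusted p = 0.0243, against 0.21 and 0.912 with all arrays), Prps2 (0.37, limma adjusted p = 0.0486, against 0.14 and 0.802) and Mtmr11 (-0.65, limma adjusted p = 0.0472, against -0.83 and 0.106). Without the kidney carriers 1 of the 1322 passed, that of Inka1 (-0.30, limma adjusted p = 0.0455, against -0.34 and 0.210 with all arrays). These 4 genes were named after their values had been seen, and Cltrn and Prps2 had correlations of 0.93 with the kidney mean, which without the near-identical arrays was still high on 50 mg/kg replicate 3.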

How the data were processed

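The deposited values are log2 signals of 31099 probe sets on 19 Rat230_2 arrays, made with RMA per the submitters' processing notes (version not given in the sources used here). Such values are equalised between arrays and compress folds near the floor and the ceiling, so a difference of low signals can read too small. Array medians lay between 6.06 and 6.16 and values between 2.4 and 15.06. Depth has no counterpart here, and the number of arrays limits the precision.

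Tests ran on 31042 probe sets, after removal of 57 controls. Of these, 20826 had 1 symbol in the platform annotation, 436 several and 9780 none, and 20758 matched RefSeq by gene ID, which gave 14217 genes. Groups were taken from the labels. The fit, a mean for each dose group, used limma 3.58.1 (R 4.3.3) and all 19 arrays (15 residual and 2.78 prior degrees of freedom). It had a two-sided moderated test and Benjamini-Hochberg adjustment over all probe sets, and was tested on simulated data. Those data had independent normal noise, with no outlying or near-identical arrays, so they do not show how the fit performs with such arrays. The submitters' R/maanova was not used.

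The members and lists were chosen with earlier results of these data known. Genes named besides the members were the 6 most correlated with each set mean, the 3 of each list with the widest range, and the 5 changed calls most correlated with a set mean. The lists covered exocrine and endocrine pancreas, proximal tubule, distal nephron, podocyte, adrenal, stomach, intestine, bile duct, skeletal muscle and hepatocyte. The alternatives tried were brighter probe sets only (mean above the median), a trended and robust variance prior, the compared groups alone, a replicate block, median centring of each array, array weights, cyclic loess, early (1 to 8) and late (9 to 20) arrays as a block, set means as covariates, group medians, all probe sets of a gene, fits without the carriers, and each array left out. The fit without the near-identical arrays was chosen after seeing the data.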

Additional observations from a re-analysis of the deposited data

Results flagged for a closer look

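Of 44 groups of 4 or 5 arrays tested over the 11 probe sets of the members, 24 held an array whose gap to the nearest of the others exceeded Dixon's critical value. Chance flags about 1 in 20 groups where groups are independent and not chosen by their values. Neither holds here, so the count is not set against that rate. The same few arrays recur over genes that were raised together, and the members were chosen with earlier results of these data known.

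The 0.1 mg/kg replicate 2 array stood apart for Prss1 (8.20), Cpa1 (8.06), Ctrb1 (11.71), Umod (9.53), Slc12a1 (11.97), Kap (9.10), Slc34a1 (12.09, and 6.21 for its second probe set) and Cdh16 (9.25). Its near-identical partner, vehicle replicate 2, stood apart for Umod (9.58), Slc12a1 (11.94), Kap (9.09), Slc34a1 (12.09 and 6.44) and Cdh16 (9.31). It was not set apart for the pancreas members, since vehicle replicate 4 was raised in the same group.

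The 50 mg/kg replicate 3 array stood apart for Umod (6.44), Slc12a1 (9.12), Kap (6.10), Slc34a1 (8.82) and Cdh16 (6.40). The 15 mg/kg replicate 5 array stood apart for Prss1 (6.97), Cpa1 (7.61) and Ctrb1 (10.25). Cela1 was set apart on 15 mg/kg replicate 2 (11.54, against 10.84 to 10.86 in the other 3 arrays of the group), an array that carried neither set.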

How the results depend on the processing

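In 623 values of the 30 member tests under an alternative, 0 passed limma's threshold, and the count of members that passed was 0 under each alternative run. The number of probe sets called at 50 mg/kg (499) was 921 with array weights, 57 with a block for early and late arrays, 280 with the set means as covariates, 198 without the pancreas carriers, 300 without the kidney carriers and 100 without either. Leaving out 1 array gave 178 to 593, and the lowest counts came without 50 mg/kg replicate 1 (178), vehicle replicate 5 (222) and 50 mg/kg replicate 4 (230). It was 237, 253 and 259 without vehicle replicates 1, 2 and 4, and 301 and 330 without 50 mg/kg replicates 2 and 3. At 15 mg/kg (0) it was 4 with the filter at the median level, 2 with the compared groups alone, 13 with array weights, 7 with the early and late block and 1 without the kidney carriers. The cause was not tested. The replicate block left 511 calls at 50 mg/kg and 0 at the other doses, and changed no call of a member. Samples with the same number were not paired, since the correlation of their deviations from the group means ran from 0.05 to 0.89 at 0.1 mg/kg (0.89 for the near-identical arrays, over 0.1 in 4 of 5 pairs), from -0.19 to 0.37 at 15 mg/kg and from -0.53 to 0.50 at 50 mg/kg. The pancreas mean at 50 mg/kg ran from -1.27 to -0.54 and the kidney mean from -1.09 to 0.75 when 1 array was left out, the last without vehicle replicate 2. These moves lay within 1 SD of the arrays, taken as the larger SD of the compared groups. That SD, of vehicle, was 1.32 for the pancreas and 2.76 for the kidney mean, against 0.08 and 0.10 without the carriers. The carriers themselves thus made it wide, so moves within it do not show that a difference was stable, and the kidney mean changed sign. Group medians gave differences of -0.15 and 0.20 at 50 mg/kg. Single members changed sign in some settings, none past the threshold. Fewer arrays per group lower the chance of a call, and array number and dose are unevenly spread.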
